A study of Phalaenopsis aphrodite subsp. formosana with 4 samples.

Results

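The miR535 family of Phalaenopsis aphrodite subsp. formosana, a moth orchid, was followed in 4 small RNA libraries, 1 each from flower buds (FB), stalks (S), low temperature-treated leaves (CL) and untreated leaves (NL). All sequences whose best match among the known miRNAs of other plants was a miR535, of any letter, were taken as members. These were 623 of the 11129 matched sequences, with 88367 of 1002362 matched reads. The sequences with at least 100 reads over the 4 libraries, 15 in number, held 85114 reads (96.3% of the family) and are described singly. The others are given by counts.

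The study asked which miRNAs answer to the cool temperatures that start flowering in this orchid, and which differ between its organs. All plants were seedlings of strain M1624 grown beforehand at 28 °C. FB buds were collected at month 3.5, S stalks at months 1.5 and 2 and CL leaves from month 0 to month 2, in each case from plants moved to a cool regime (24 °C by light and 18 °C by night). NL leaves were collected over the same months as CL leaves from plants in a warm regime (32 °C by light and 27 °C by night), which keeps them from flowering. No stalks or buds formed at the higher temperatures, so organ, month of harvest and the passage to flowering cannot be told apart in S and FB. The sources used here do not say how many plants entered each library. The tables hold miRNAs and no transcripts that would mark an organ, so the organ labels could not be checked.

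Plant miRNAs are cut from hairpin precursors by DICER-LIKE1, mostly at a length of 21 nt, and those that begin with U are preferred by ARGONAUTE1, the protein that cleaves their target transcripts. The miR535 family is a close relative of miR156 in sequence. In many plants miR156 holds down SPL genes, transcription factors that promote the change from the juvenile to the adult phase and to flowering, and in rice miR535 has also been linked to SPL transcripts.

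The orchid family was dominated by 3 sequences of 21 nt that differ only within positions 5 to 7, counted from the 5′ end. They are shown because the results turn on which of them each library held, with the bases at positions 2 to 8, the seed, in capitals:
form 1: uGACAACGagagagagcacgc
form 2: uGACGAUGagagagagcacgc
form 3: uGACAAAGagagagagcacgc

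The main sequence of form 1 was identical to miR535a of the moss Physcomitrella patens (ppt-miR535a). The known miR535 of grapevine (vvi-miR535a) and columbine (aqc-miR535) hold the same bases with 1 more at the 3′ end. Against form 1, form 2 had the changes A5G and C7U (the base of form 1 first), and form 3 had C7A. All these positions lie within the seed, so each main sequence has a seed of its own. A sequence was placed in a form by the 3 bases at positions 5 to 7 within the stretch that the main sequences share, so that trimmed and extended versions counted with their form where their best match was a miR535. Versions with the same stretch whose best match was a miR156 lie outside the family and its forms, which left out 1.44% of the reads with the stretch of form 2 and 39.6% of those with the stretch of form 3. Form 1 held 178 sequences and 68923 reads, form 2 held 19 sequences and 14127 reads, and form 3 held 38 sequences and 3262 reads. The 388 sequences without an exact match to any of these stretches held 2.33% of the reads. Sequences with only 1 of the changes of form 2 were rare, with 77 reads for C7U alone and 29 reads for A5G alone.

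For comparison of the bases, 2 sequences named miR156 are given in the same way, osa-miR156k of rice, a known miRNA to which some trimmed orchid sequences were matched, and the miR156 sequence with the most reads in these libraries:
osa-miR156k: uGACAGAAgagagagagcaca
most abundant miR156: cUGACAGAagauagagagcac

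Counting substitutions, insertions and deletions, the main sequences of forms 1, 2 and 3 were 0, 2 and 1 differences from ppt-miR535a. They were 4, 4 and 3 differences from osa-miR156k, and 6, 6 and 5 from the most abundant orchid miR156. Form 3 was the nearest of the 3 forms to miR156 on both counts.

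The level of a sequence is its reads in 1000000 clean reads (RPM), which are all reads that passed the quality steps of the study. With 1 library per condition no test between conditions was possible. Each ratio therefore compares 2 libraries, with an exact conditional binomial 95% interval in brackets, and a ratio above 1.5 was called higher and one below 0.667 lower. These intervals hold counting error alone, and PCR copies of a molecule are counted as if they were separate. The reads matched to any known miRNA numbered 265352 in FB, 106142 in S, 404345 in CL and 226523 in NL. Each ratio of the family and its forms was also computed over these matched reads, and the text says where this turned its direction. Ratios and median ratios of single sequences are given over clean reads alone, and a turn of their direction is not marked.

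The miR535 family had 37574 reads in FB, 5423 in S, 28859 in CL and 16511 in NL. This was 5948 RPM (5888 to 6008) in FB, 677 RPM (659 to 695) in S, 3900.4 RPM (3856 to 3946) in CL and 2293 RPM (2258 to 2328) in NL. The order of the levels was FB, CL, NL and S, and no pair of counting intervals overlapped. The family took 14.2% of matched reads in FB, 5.11% in S, 7.14% in CL and 7.29% in NL, and ranked 2nd among all families in FB, 5th in S, 6th in CL and 5th in NL. The ratio of FB to S was 8.79 (8.54 to 9.05), against 2.77 over matched reads, and that of FB to CL 1.52 (1.502 to 1.55), just past the limit. With perfect matches alone, which leave out forms 2 and 3, the ratio of FB to CL was 1.09 and was not called. The ratio of S to CL was 0.173 (0.168 to 0.179), and over matched reads it was 0.716 and was not called. The ratio of CL to NL was 1.70 (1.67 to 1.73), but over matched reads it was 0.979, so the direction between the leaf libraries depended on the denominator. This ratio was 1.63 over high-quality reads and 1.30, not called, over matched reads without those of the miR528 family. By northern hybridization, the study reported miR535 as induced in treated leaves. In a bulk sample, fewer cells of a type and less RNA per cell cannot be told apart.

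Behind these sums the 3 forms went different ways. Form 2 made up a large part of the family in FB and a small part in leaves, form 3 was a leaf form, and form 1 was the main form of every library.

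Form 1 had 24114 reads in FB, 4675 in S, 25924 in CL and 14210 in NL. Its level was 3817 RPM (3769 to 3866) in FB, 583 RPM (567 to 600.2) in S, 3504 RPM (3461 to 3547) in CL and 1973 RPM (1941 to 2006) in NL. FB and CL stood close together at the top and S was lowest. The ratio of FB to CL, 1.09 (1.07 to 1.11), was not called, and it was below 1 over high-quality reads (0.974) and with raw reads (0.9302). Form 1 was higher in FB than in S at a ratio of 6.54 (6.34 to 6.75), or 2.06 over matched reads, and lower in S than in CL at 0.166 (0.161 to 0.172), though over matched reads the ratio of S to CL, 0.687, was not called. It was higher in CL than in NL at 1.78 (1.74 to 1.81), and over matched reads this ratio was 1.02. Its main sequence was the 2nd most abundant miRNA sequence of FB, the 6th of S, the 4th of CL and the 6th of NL.

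Form 2 had 12531 reads in FB, 530 in S, 744 in CL and 322 in NL. Its level was 1984 RPM (1949 to 2019) in FB, 66.1 RPM (60.6 to 72.0) in S, 100.6 RPM (93.5 to 108) in CL and 44.7 RPM (40.0 to 49.9) in NL. FB stood far above the other libraries, and no pair of counting intervals overlapped. Form 2 was 19.7 (18.3 to 21.3) times as high in FB as in CL and 30.0 (27.5 to 32.8) times as high in FB as in S. Over matched reads these ratios were 25.7 and 9.46. Its main sequence ranked 5th in FB, 23rd in S, 32nd in CL and 47th in NL. By its ratio of FB to CL it was 10th of the 225 sequences with at least 100 reads that could be compared. The ratio of CL to NL was 2.25 (1.97 to 2.57), and 1.29 over matched reads. The ratio of S to CL was 0.658 (0.587 to 0.736), but over matched reads it was 2.71, so no direction between stalk and treated leaf held under both denominators.

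Form 3 had 142 reads in FB, 68 in S, 1498 in CL and 1554 in NL. Its level was 22.5 RPM (18.9 to 26.5) in FB, 8.48 RPM (6.59 to 10.8) in S, 202 RPM (192 to 213) in CL and 216 RPM (205 to 227) in NL. Both leaf libraries were far above FB and S, and the counting intervals of CL and NL overlapped. With the reads named miR156, the level was 31.7 RPM in FB, 9.73 in S, 336 in CL and 366 in NL. The ratio of FB to CL was 0.111 (0.0928 to 0.132) and that of S to CL 0.0419 (0.0324 to 0.0534), which was 0.173 over matched reads and 0.0289 with the reads named miR156. The ratio of CL to NL was 0.938 (0.873 to 1.01) and was not called, but over matched reads it was 0.540, past the limit. The ratio of FB to S was 2.65 (1.97 to 3.59), and its direction turned over matched reads, at 0.835. The main sequence of form 3 ranked 70th in FB, 70th in S, 21st in CL and 19th in NL.

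**Figure D1:**
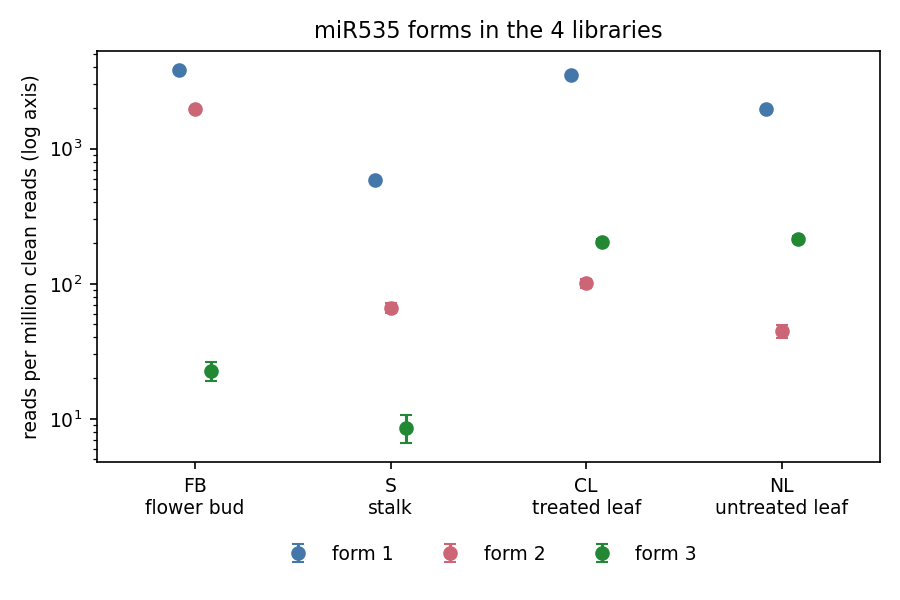
Level of each miR535 form (RPM, log axis) in FB, S, CL and NL, with 1 library per condition. Points are the levels and bars exact Poisson 95% intervals, which cover counting error only and are often smaller than the point. Form 2 stood at 1984 RPM in FB and at most 100.6 RPM elsewhere, while form 3 was at 202 RPM in CL and 216 RPM in NL and at most 22.5 RPM in the other libraries. The order of form 2 between S and CL and of form 3 between FB and S turned when matched reads were the denominator.

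The plot of levels by form shows that forms 2 and 3 change places between the flowering organs and the leaves. Form 2 lay above form 3 in FB and S and below it in CL and NL. There were 88.2 reads of form 2 for each read of form 3 in FB, 7.79 in S, 0.497 in CL and 0.207 in NL.

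The make-up of the family does not depend on any denominator, since it compares reads within a library. Form 1 held 64.2% (63.7 to 64.7) of miR535 reads in FB, 86.2% (85.3 to 87.1) in S, 89.8% (89.5 to 90.2) in CL and 86.1% (85.5 to 86.6) in NL, with exact Clopper-Pearson intervals. Form 2 held 33.4% (32.9 to 33.8) in FB, 9.77% (8.995 to 10.6) in S, 2.58% (2.40 to 2.77) in CL and 1.95% (1.74 to 2.17) in NL. Form 3 held 0.378% (0.318 to 0.445) in FB, 1.25% (0.975 to 1.59) in S, 5.19% (4.94 to 5.45) in CL and 9.41% (8.97 to 9.87) in NL. The share of form 2 thus went down in the order FB, S, CL and NL, and the share of form 3 went up in that order, with no overlap of counting intervals between any 2 libraries. With the reads named miR156 counted in, form 3 held 0.529% in FB, 1.43% in S, 8.33% in CL and 14.98% in NL, in the same order.

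**Figure D2:**
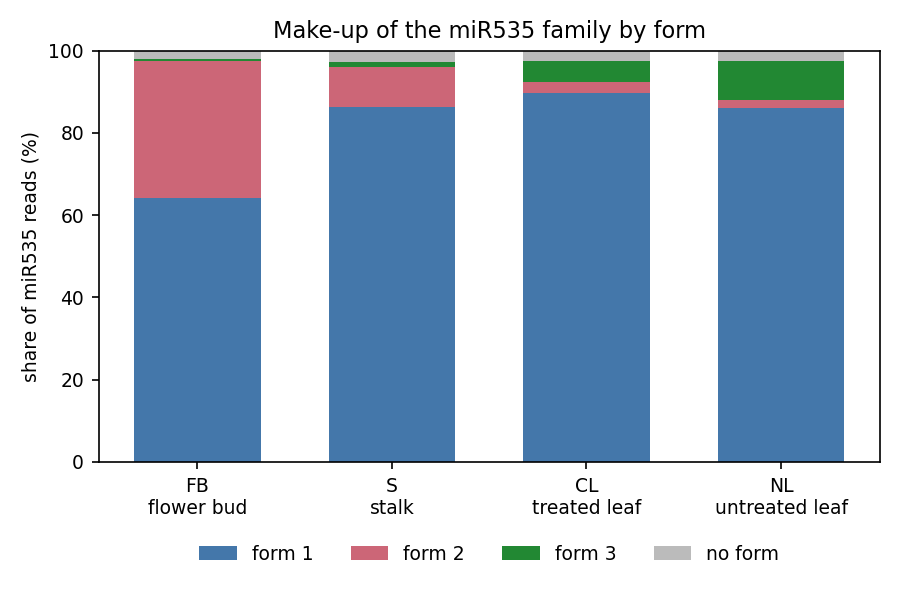
Share of miR535 reads (%) in each form for FB, S, CL and NL, as stacked bars that add to the whole family. Form 2 fills 33.4% of the FB bar and 1.95% of the NL bar, and form 3 fills 0.378% of the FB bar and 9.41% of the NL bar.

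Set against form 1 of the same library, form 2 had 52.0 reads per 100 reads of form 1 in FB, 11.3 in S, 2.87 in CL and 2.27 in NL. This measure was 18.1 (16.8 to 19.5) times as high in FB as in CL, 4.58 (4.18 to 5.03) times as high in FB as in S, 3.95 (3.52 to 4.43) times as high in S as in CL and 1.27 (1.11 to 1.45) times as high in CL as in NL, with log-normal 95% intervals. Form 3 had 0.589 reads per 100 reads of form 1 in FB, 1.45 in S, 5.78 in CL and 10.9 in NL. Relative to form 1 it was 0.102 (0.0857 to 0.121) times as high in FB as in CL, 0.405 (0.303 to 0.541) times as high in FB as in S, 0.252 (0.197 to 0.322) times as high in S as in CL and 0.528 (0.491 to 0.569) times as high in CL as in NL. Between the leaf libraries, then, form 3 did not go with form 1: its reads per read of form 1 were lower in CL. FB and S differed from the leaves in both forms, and S lay between FB and CL in both.

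The plot of family make-up counts all sequences of a form, and the 3 main sequences alone left little to others. Together they held 92.3% of miR535 reads in FB, 91.4% in S, 91.2% in CL and 91.0% in NL. Of all 623 members, 399 (64.0%) were read 1 time, 430 were found in a single library and 71 in all 4. Those 71 held 98.7% of the reads. By best match, 490 members with 87534 reads went to ppt-miR535a, 104 members with 780 reads to vvi-miR535a of grapevine and 29 members with 53 reads to aqc-miR535 of columbine. Over all members, reads fell on 94 seeds, and the seeds of the 3 main sequences held 95.9% of the reads.

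The 15 members with at least 100 reads are printed in order of their reads, with bases 2 to 8 in capitals. End variants of form 3 with 1419, 377 and 102 reads were named miR156 and are left out. Single-base variants of form 2 mostly pass the 2 mismatches that the matching allows. Under these limits the list holds the 3 main sequences, end variants of forms 1 and 2 and single-base variants of form 1:
member 1: uGACAACGagagagagcacgc
member 2: uGACGAUGagagagagcacgc
member 3: uGACAAAGagagagagcacgc
member 4: gACAACGAgagagagcacgc
member 5: gACGAUGAgagagagcacgc
member 6: aCAACGAGagagagcacgc
member 7: uGACAACGagagagagcacgcu
member 8: uGACAACGagagagagcacg
member 9: uGACAACGagagagagcac
member 10: uGACAACGagcgagagcacgc
member 11: uGACAACGagagagagcccgc
member 12: uGACAACGagagagcgcacgc
member 13: uGACAACGagagagagca
member 14: uGACAACGagagcgagcacgc
member 15: uGACAACGagauagagcacgc

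The first 3 are the main sequences of forms 1, 2 and 3. Members 4 and 6 are form 1 without its first base and without its first 2 bases, and member 5 is form 2 without its first base. Loss of a 5′ base moves the seed, so these have seeds of their own. Members 7, 8, 9 and 13 are form 1 with a U added or with 1, 2 or 3 bases removed at the 3′ end, and members 10, 11, 12, 14 and 15 are form 1 with a single changed base. In all, 10 of the 15 had the seed of form 1. Members 4 and 6 to 15 are thus versions of the form 1 main sequence, each with at most 3.01 reads per 100 reads of it. The counts of calls and the medians below therefore do not rest on 15 separate observations. Members 10, 12, 14 and 15 counted in no form because their changed base lies within the stretch that defines the forms. Just inside the limit of 100 reads were members with 129, 115 and 102 reads, and just outside were sequences with 96, 93 and 80 reads.

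In FB against S, all 15 members were called higher and 0 lower, where 75.3% of all 223 matched sequences compared were called higher and 5.83% lower. In S against CL, 0 were called higher and 15 lower, where 7.59% of 224 sequences were called higher and 77.2% lower. The low level in S was thus shared with most miRNA sequences of that library. The median ratio of S to CL was 0.152 over the members and 0.221 over all sequences, and the median ratio of FB to S was 7.75 over the members and 3.66 over all.

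In FB against CL the members split. Members 2, 5, 9, 12 and 13 were called higher (5 of 15) and members 3 and 10 lower (2 of 15), where 23.6% of 225 sequences were called higher and 33.3% lower. The median ratio was 1.18 over the members and 0.941 over all sequences. Member 1 at 1.09 (1.07 to 1.11) and its 5′-trimmed version, member 4, at 0.9299 (0.832 to 1.04) were near 1, with 578 reads of member 4 in FB, 116 in S, 728 in CL and 368 in NL. Member 5, the 5′-trimmed form 2, had 341 reads in FB, 8 in S, 16 in CL and 7 in NL. Its ratio of FB to CL was 24.96 (15.2 to 44.2), with an interval that held the ratio of the untrimmed form 2. The interval of member 4 ended below that of member 1, though both ratios were near 1 and far from those of form 2.

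In CL against NL, 9 members were called higher and 0 lower, where 47.6% of 225 sequences were called higher and 11.1% lower. The median ratio was 1.65 over the members and 1.44 over all sequences. The ratios of the members ran between 0.940 for member 3 and 2.54 (1.83 to 3.58) for member 6, and over matched reads 0 members were called higher and 3 lower, where 28.9% of all sequences were called higher and 36% lower. The leaf calls of single members therefore rest on the denominator.

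**Figure D3:**
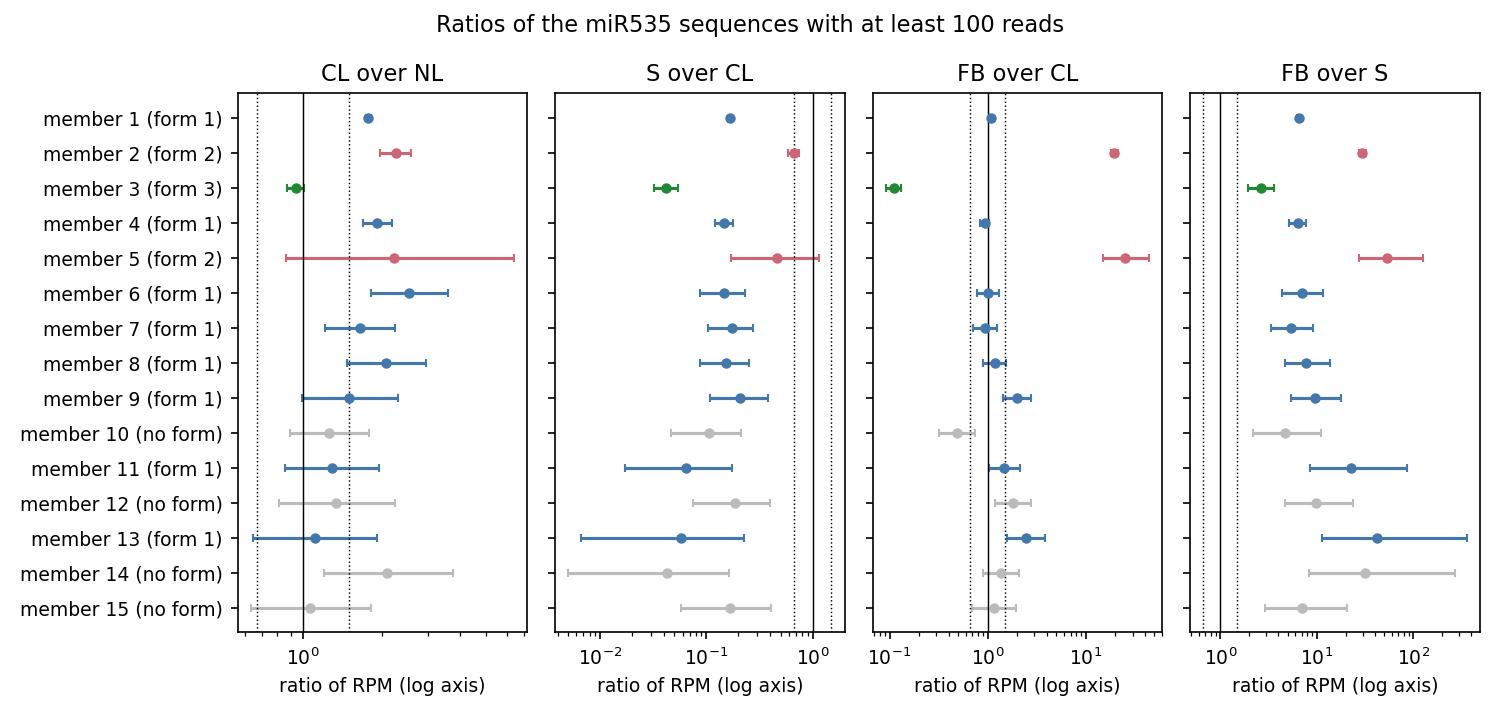
Ratio of RPM (log axis, different for each panel) of the 15 members with at least 100 reads, for CL over NL, S over CL, FB over CL and FB over S. Points are ratios, bars exact conditional binomial 95% intervals, the solid line marks 1 and the dotted lines the limits 1.5 and 0.667. In FB over CL the members of form 2 lie at 19.6 and 24.96 and the member of form 3 at 0.110, while those of form 1 lie between 0.9299 and 2.45.

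The plot of member ratios shows form 1 end variants around their main sequence, with a few exceptions at both ends. At the 5′ end, member 4 lay below member 1 in FB to CL. Member 6 lay above member 1 in CL to NL, at 2.54 (1.83 to 3.58) against 1.78 (1.74 to 1.82). Member 13, form 1 without its last 3 bases, had 67 reads in FB, 2 in S, 32 in CL and 28 in NL, and its ratio of FB to CL was 2.45 (1.59 to 3.86). Member 9, without the last 2 bases, had 105 reads in FB, 14 in S, 62 in CL and 40 in NL, and its ratio of FB to CL was 1.98 (1.44 to 2.76). Both intervals lay above the ratio of the main sequence. RNA of 20 to 25 nt was cut from a gel before sequencing, and these trimmed versions fall below that range. The study removed more reads below 18 nt from FB than from any other library. Whether this bears on the trimmed versions was not tested. Member 10, form 1 with A11C, had 33 reads in FB, 9 in S, 79 in CL and 61 in NL, and its ratio of FB to CL was 0.489 (0.316 to 0.743).

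Loss of the first base was similar between libraries for form 1. Form 1 without its first base had 2.57 reads per 100 reads of the main sequence in FB, 2.65 in S, 3.01 in CL and 2.78 in NL. Form 2 without its first base had 2.82 per 100 in FB, 1.55 in S, 2.21 in CL and 2.25 in NL. Form 3 without its first base had 0.746 per 100 in FB, 1.54 in S, 1.26 in CL and 1.15 in NL, which rests on 1 read in FB, 1 in S, 18 in CL and 17 in NL. At the 3′ end, form 1 without its last base had 0.490 reads per 100 in FB, 0.411 in S, 0.451 in CL and 0.385 in NL. Other 3′ ends of form 1 varied more, on few reads. Form 1 without its last 3 bases had 0.298 per 100 in FB, 0.0457 in S, 0.132 in CL and 0.211 in NL, and with UU added it had 0.102 in FB, 0.251 in S, 0.145 in CL and 0.204 in NL.

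The family was uniform in length and in its first base. Sequences of 21 nt held 95.4% of miR535 reads in FB, 95.1% in S, 94.9% in CL and 95.2% in NL. In the other families together they held 81.9% in FB, 79.7% in S, 73.9% in CL and 64.8% in NL. Reads that began with U made up 96.7% of the family in FB, 96.5% in S, 96.3% in CL and 96.6% in NL. In the other families together they made up 84.8% in FB, 70.7% in S, 87.9% in CL and 84.4% in NL. The pooled shares of the other families differed more between libraries than those of miR535. Other families were not measured singly, so this is not shown to be particular to miR535.

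Form 3 differs from form 1 at a single base, so its level was set beside all other single-base variants of the form 1 main sequence. All 63 possible variants were found. Form 3, the C7A variant, had 0.597 reads per 100 reads of the form 1 main sequence in FB, 1.49 in S, 5.89 in CL and 11.1 in NL. The other 62 had a median of 0.0512 in FB, 0.0457 in S, 0.0393 in CL and 0.0453 in NL. The highest of these 62 reached 0.321 in FB, 0.206 in S, 0.327 in CL and 0.461 in NL. Form 3 was above all of them in each library, by a narrow margin in FB. The sum of the other 62 was nearly level, with 4.35 per 100 in FB, 3.98 in S, 3.62 in CL and 4.27 in NL, while form 3 varied widely. Form 2 could not be set beside its variants in this way, because a further changed base takes most of them past the 2 mismatches that the tables allow.

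**Figure D4:**
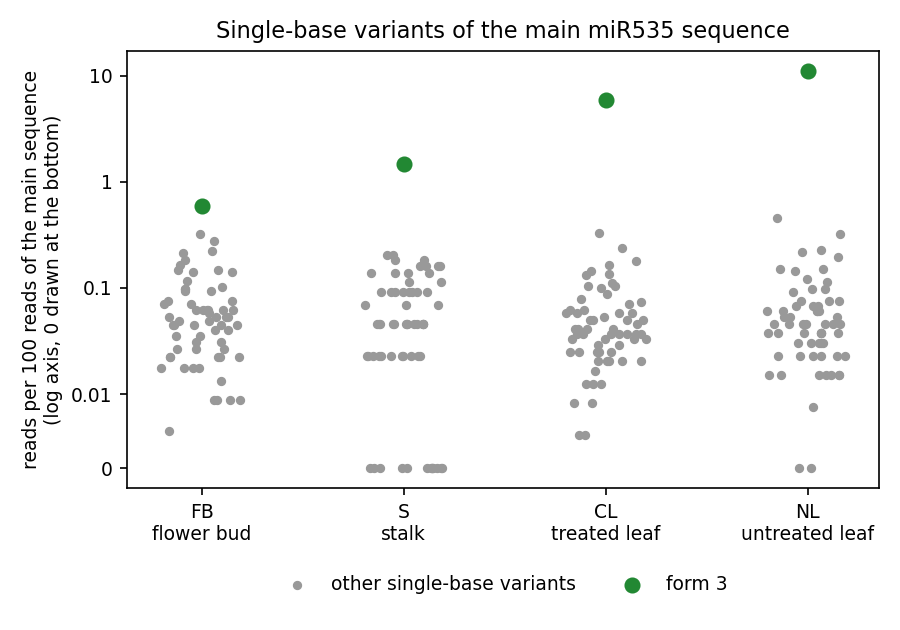
Reads of each single-base variant per 100 reads of the main form 1 sequence (log axis, variants with 0 reads drawn at the bottom) in FB, S, CL and NL. The large point is form 3 and the small points, spread sideways at random, are the other 62 variants. Form 3 stands at 0.597 in FB and 11.1 in NL, above the highest other variant at 0.321 in FB and 0.461 in NL.

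The plot of single-base variants shows that distance to be smallest in FB and largest in NL. The study listed 6 miR535 sequences with a predicted precursor. These had 39 reads in all, 15 in FB, 4 in S, 10 in CL and 10 in NL, and the most frequent, form 1 with G12A, had 25. None of the 3 main sequences was itself among these 6. A listed sequence with 5 reads was the main sequence of form 1 with UA added at its 3′ end. Another, with 1 read, was the same without its first base. The rest carried changed bases. No precursor or genome sequence was used here, so whether forms 2 and 3 come from loci of their own was not tested.

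The other families of the same pathway did not share a single pattern. The miR156 family, which acts on SPL genes, had 7904 reads in FB, 3133 in S, 30060 in CL and 11479 in NL. Its ratio of FB to CL was 0.308 (0.300 to 0.316), that of S to CL 0.0962 (0.0927 to 0.0998) and that of CL to NL 2.55 (2.49 to 2.60). miR157, a near relative that also acts on SPL genes, had 1087 reads in FB, 168 in S, 3876 in CL and 2071 in NL, and a ratio of FB to CL of 0.328 (0.307 to 0.351). Both were lower in FB than in CL, as was form 3 and unlike forms 1 and 2. The ratio of CL to NL was 1.82 (1.73 to 1.92) for miR157, against 0.938 for form 3, which was not called. Over matched reads it was 1.47 for miR156, 1.05 for miR157 and 0.540 for form 3.

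miR529, whose known targets are also SPL genes, had only 171 reads in FB, 321 in S, 174 in CL and 99 in NL. Its ratio of S to CL, 1.70 (1.41 to 2.06), was on the other side of 1 from those of all 3 forms, although over matched reads form 2, at 2.71, was on the same side as miR529, at 7.03. miR172, which acts on AP2-type transcription factors later in the same pathway, had 14881 reads in FB, 20562 in S, 6457 in CL and 13334 in NL. Its ratio of FB to CL was 2.70 (2.62 to 2.78), that of S to CL 2.94 (2.86 to 3.02) and that of CL to NL 0.471 (0.457 to 0.486). In FB against CL, miR172 was called higher and miR156 and miR157 lower, while miR529 was not called, at 1.15 (0.927 to 1.43). The share of all families called was not computed, so these calls stand singly.

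The families most like each form were found from log2 RPM, centred over the 4 libraries, among the 15 other families with at least 1000 reads. The measure is the root mean square difference over 4 points that share their libraries and denominators, and it is a description. For the whole family the nearest were miR2911 at 0.34, miR397 at 0.36 and miR164 at 0.43, and for form 1 they were miR164 at 0.28, miR2911 at 0.28 and miR397 at 0.54. For form 2 they were miR169 at 0.63, miR397 at 1.46 and miR159 at 1.47, so only miR169, with 643 RPM in FB, 42.3 in S, 19.7 in CL and 20.4 in NL, was near. For form 3 they were miR167 at 0.50, miR157 at 0.91 and miR156 at 1.15. miR167 had 955 RPM in FB, 596 in S, 6738 in CL and 6091 in NL, again high in both leaf libraries.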

How the data were processed

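Small RNAs of 4 libraries were sequenced by the authors, who removed adaptors, contaminants, polyA, low-quality reads and reads below 18 nt, collapsed identical reads and aligned them by BLAST to miRBase 15. The sources used here give no BLAST version. The deposited values are whole-number counts of reads per unique sequence, with best match, mismatches (at most 2) and gaps (at most 5 with mismatches). Families join all best matches of the same number. RPM uses the clean reads that the study states (6317171 in FB, 8015074 in S, 7399031 in CL and 7201625 in NL). High-quality reads were an alternative denominator. Ratios have exact conditional binomial 95% intervals, and the calculation was tested on simulated data. Where a count was 0, up to 3 reads were allowed for. Sequences with at least 100 reads, the 3 main forms, the sequences next to that limit, those listed with a precursor, the SPL and miR172 families and the 3 most similar families are named by rule. The members and lists were chosen with earlier results of these data known. In all 34 alternatives were planned and 1 was added after the values were seen. Python 3.11.15, pandas 2.3.3, SciPy 1.17.1 and matplotlib 3.10.9 were used.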

Additional observations from a re-analysis of the deposited data

Results flagged for a closer look

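Some reads with the stretch that defines a form had a best match outside miR535 and stand outside the family sums. Form 1 had none. Form 2 had 206 such reads in 15 sequences (185 in FB, 5 in S, 9 in CL and 7 in NL), all named miR156, which is 1.44% of all reads with its stretch. Form 3 had 2141 such reads in 37 sequences (58 in FB, 10 in S, 990 in CL and 1083 in NL), again all named miR156, which is 39.6% of all reads with its stretch and 4.07% of the reads of the miR156 family. They are shown because the most frequent are form 3 shifted by a base toward the 5′ end, with U or C in front and the last base missing (bases 2 to 8 in capitals):
core under another name 1: uUGACAAAgagagagagcacg
core under another name 2: cUGACAAAgagagagagcacg

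The sequence with U in front had 28 reads in FB, 4 in S, 770 in CL and 617 in NL, and its ratio of CL to NL was 1.21 (1.09 to 1.35). The sequence with C in front had 16 reads in FB, 4 in S, 59 in CL and 298 in NL, and its ratio of CL to NL was 0.193 (0.143 to 0.256). The 2 sequences differ at their first base only, and their intervals in the leaf libraries did not overlap. Per 100 reads of the main form 3 sequence, the sequence with U in front had 20.9 in FB, 6.15 in S, 54.1 in CL and 41.9 in NL. The same shift of form 1 had 7 reads with U in front and 0 with C in front, over all 4 libraries. What sets the names, and whether these sequences come from a miR156 or a miR535 precursor, was not tested. With the reads under other names, form 3 had 200 reads in FB, 78 in S, 2488 in CL and 2637 in NL, and its ratio of FB to CL was 0.0942, an alternative chosen after the values were seen.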

How the results depend on the processing

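Of 188 ratios of the family and its forms under alternatives, 164 kept direction and call, and 22 moved by over 1.5 times. Of 96 shares of the family, 60 stayed within their counting interval. The ratios of FB to CL for forms 2 and 3 kept direction and call throughout. That for form 1, not called, was 0.974 over high-quality reads and 0.9302 with raw reads. Over all matched reads, CL to NL was 0.979 for the family, 1.02 for form 1, 1.29 for form 2 and 0.540 for form 3. S to CL was 0.716 for the family, 0.687 for form 1 and 2.71 for form 2, and FB to S was 0.835 for form 3. Over matched reads without miR528, CL to NL was 1.30 for the family and 1.36 for form 1, S to CL was 1.77 for form 2 and FB to S was 1.33 for form 3. Over high-quality reads, FB to CL was 1.36 for the family and S to CL 0.682 for form 2. With raw reads they were 1.30 and 0.712. Without its most abundant sequence the family had 1.39 for CL to NL, 3.78 for FB to CL and 18.3 for FB to S, and with perfect matches only 1.09 for FB to CL. A limit of 2 ended the calls at 1.70 (family, CL to NL), 1.52 (family, FB to CL), 1.78 (form 1, CL to NL) and 0.658 (form 2, S to CL). The cause of these shifts was not tested.

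Counts of called members are given with the share of all sequences called at that setting in brackets. Over matched reads, of 15 members, 0 (28.9%) were higher and 3 (36%) lower in CL against NL, 2 (46%) higher and 8 (45.1%) lower in S against CL, and 9 (37.3%) higher in FB against CL. Without miR528, 5 (38.7%) were higher in CL against NL, 1 (33.9%) in S against CL and 9 (39.6%) in FB against CL. With at least 20 reads, of 67 members, 38 (44.7%) were higher and 3 (13.3%) lower in CL against NL, 2 (10.3%) higher and 64 (73.1%) lower in S against CL, and 27 (26.6%) higher and 8 (38.6%) lower in FB against CL. Of 66 members, 65 (67%) were higher in FB against S. With at least 1000 reads, of 4 members, 3 (35.8%) were higher in CL against NL, 4 (79.2%) lower in S against CL, 1 (24.5%) higher and 1 (43.4%) lower in FB against CL, and 4 (69.8%) higher in FB against S. With a limit of 2, of 15 members, 5 (37.8%) were higher in CL against NL and 3 (16.4%) in FB against CL. Low counts limit some values, as form 3 had 68 reads in S and members 13 and 14 had 2 reads each there.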
